A study of Mus musculus with 2 samples.

Results

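Selected SOX genes of the SOXB, SOXC, SOXD and SOXE groups were followed in wildtype mouse ureters in which canonical WNT signaling had been activated. They were the genes Sox2 and Sox21 (SOXB), Sox4, Sox11 and Sox12 (SOXC), Sox5, Sox6 and Sox13 (SOXD), and Sox8 and Sox9 (SOXE). Members were taken by name, as the biological probes whose gene name on the array was one of these. This gave 10 genes with 16 probes, of 29875 genes with 39429 probes in all. All 10 genes were measured with at least 1 tested probe, and 15 of the 16 probes were tested. Other genes of these groups, such as Sox10, were not members and are reported further below.

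Ureters had been dissected from NMRI wildtype embryos at E12.5, pooled, and cultured as explants for 18 h. The treated pools received 10 µM BIO, an inhibitor of the kinase GSK3 that stabilizes β-catenin, and the control pools received DMSO alone, at 2 parts per 1000 parts of medium. RNA of a treated and of a control pool was hybridized together on each of 2 arrays. On the first array (replicate 1) BIO was labeled red (AlexaFluor647) and control green (AlexaFluor555), and on the second (replicate 2) these dyes were swapped. The explants held ureteric mesenchyme (UM), ureteric epithelium (UE), vessels and nerves together, so fewer cells of a type and less RNA per cell cannot be told apart. All 12 UM markers and all 12 UE markers that were looked up were above background, and no spot was saturated.

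SOX proteins bind DNA through an HMG box, a domain that they share with the TCF and LEF factors through which β-catenin acts on WNT target genes. The groups differ outside this box. SOX2 is an activator that keeps progenitors of the nervous system and foregut undifferentiated, and SOX21 is a repressor of the same group. The SOXC factors act with overlapping functions in embryonic progenitors and young neurons. The SOXD factors have no activation domain of their own, form dimers, and assist SOX9 on cartilage genes. SOX8 and SOX9 act together in the branching tips of the ureteric bud, and SOX9 is also made in the UM, where it takes part in the program of smooth muscle differentiation.

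The promoters of the genes that passed the test are shown because these factors and the TCF and LEF factors recognize a shared core. The promoter is given from 250 bases before to 50 bases after the annotated start, 5′ to 3′ on the strand of the gene, from RefSeq on build GRCm38.p6. Capitals mark CTTTG on either strand (CAAAG on the other). This core lies inside the longer TCF and LEF motif letters CTTTGAT and CTTTGAA, and CAAAG can also end a SOX motif, so these matches overlap.
Sox2 promoter, chr3:34649745-34650044, plus strand: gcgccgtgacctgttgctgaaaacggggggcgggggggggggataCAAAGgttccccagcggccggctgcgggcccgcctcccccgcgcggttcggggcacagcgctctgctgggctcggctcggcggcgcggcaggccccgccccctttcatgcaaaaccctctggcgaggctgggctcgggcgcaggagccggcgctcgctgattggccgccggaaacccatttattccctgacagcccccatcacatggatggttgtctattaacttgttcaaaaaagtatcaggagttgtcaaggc
Sox11 promoter, chr12:27342669-27342968, minus strand: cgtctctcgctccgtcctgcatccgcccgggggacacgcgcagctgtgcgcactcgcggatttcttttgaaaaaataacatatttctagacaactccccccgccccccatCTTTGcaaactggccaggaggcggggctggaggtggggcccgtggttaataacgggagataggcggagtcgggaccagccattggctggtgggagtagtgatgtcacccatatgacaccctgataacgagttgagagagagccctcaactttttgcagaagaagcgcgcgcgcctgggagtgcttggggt
Both windows held the core 1 time, and neither held CTTTGAT or CTTTGAA. Of the 10 genes, 9 had a promoter entry and Sox9 had none. The core was in 11 of their 14 promoters, which belonged to Sox2, Sox6, Sox8, Sox11, Sox13 and Sox21, against 53.9% of 32851 promoters of this length. Sox6 alone had 6 of the 14 promoters, and all of these held the core. The windows of Sox4, Sox5 and Sox12 did not hold it. CTTTGAT was in 1 and CTTTGAA in 2 of the 6 promoters of Sox6, against 3.7% and 5.1% of all promoters. These matches are a description of letters and say nothing about binding.

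Targets of canonical WNT signaling were mostly higher after BIO. Of 12 such genes, 10 rose and 1 fell, with a median log2 ratio (BIO over control) of 1.08. The fallen one was Dkk1, a secreted WNT inhibitor, at −0.53, and its call was lost after median centring (limma adjusted p = 0.073). Axin2, the feedback inhibitor that reads out β-catenin activity, had log2 ratios of 2.27 and 2.03, and Sp5, another direct target, 2.66 and 2.94. Lgr5, a receptor for R-spondins, rose by a mean of 2.09, and Tcf7, an HMG box factor that acts with β-catenin, by 1.38. Changes were called with limma at an adjusted p below 0.05, with the ratio taken as positive where BIO was higher.

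Of the 10 SOX genes, 1 rose (Sox11), 1 fell (Sox2) and 8 did not pass the test. The called share, 2 of 10, lies near the background, since 23.9% of the 21574 genes tested were called, 9.13% risen and 14.8% fallen. The median log2 ratio of the 10 genes was −0.24, with −0.21 in replicate 1 and −0.16 in replicate 2, beside −0.01 over all genes tested. Sox11, Sox12 and Sox21 were higher in the BIO channel of both arrays, and Sox2, Sox4, Sox5, Sox6 and Sox8 were lower in both. Sox9 and Sox13 had opposite signs in the 2 arrays, as had 27.1% of all genes. Among all genes, 34.7% were higher and 38.1% lower in both arrays.

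**Figure D1:**
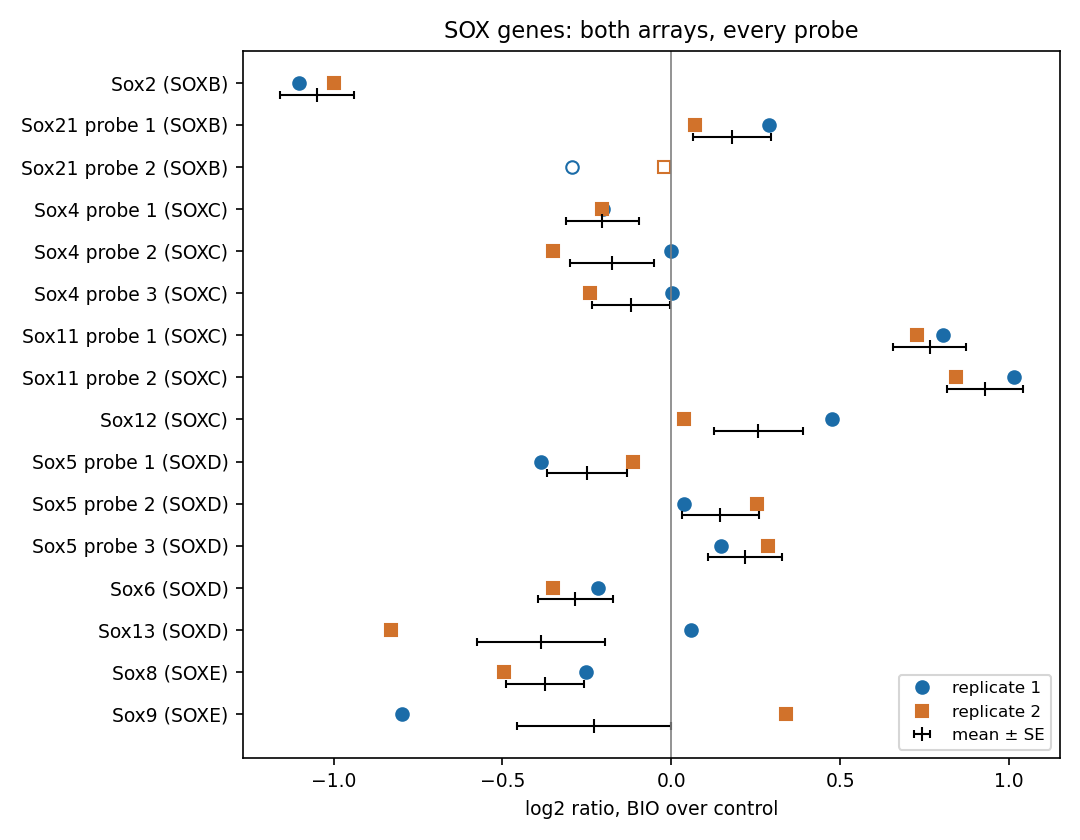
Log2 ratios of BIO over control for all 16 probes of the 10 SOX genes, with the group in brackets. Circles are replicate 1, squares are replicate 2, and the bar beneath is the mean ± SE of the fit. Open symbols mark the Sox21 probe that was not tested. The Sox2 points lie near −1, both Sox11 probes near 0.8 to 1, and the points of Sox9 and Sox13 lie far apart.

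In the SOXB group, Sox2 was lower after BIO. Its probe, at chr3:34550773-34550832 on the plus strand in build mm9, begins as follows, shown because the call rests on this 1 probe; in this and the probes below lower case letters are the first 30 of 60 bases.
Sox2 probe: tggcaatcaaatgtccattgtttataagct
The processed signal, which is the scanner signal after background subtraction and dye normalization in arbitrary units, was 157 (control) and 65.2 (BIO) on the first array and 192 (control) and 87.5 (BIO) on the other. Both control values lay above both BIO values. The log2 ratios were −1.10 and −0.998, with a mean of −1.05 (SE 0.11, n = 2 arrays, limma adjusted p = 4.1e-04), or 2.07-fold lower. Sox2 was the only one of the 10 genes that passed the intensity and fold-change rule, which asks for at least 2-fold on both arrays and a signal of at least 100 in the brighter channel. That rule picked 2.23% of 29864 genes, 1.47% as lower. The signal was dim, and the probe was well above background in all 4 channels. With the deposited value table in place of the scanner values, the call of Sox2 was lost at a limma adjusted p of 0.0546.

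Sox21, the repressor of the group, gave no call. Its tested probe had processed signals of 35.4 (control) and 52.5 (BIO) in replicate 1 and 47.9 and 53.4 in replicate 2. Both BIO values lay above both control values, by a small margin in replicate 2. The mean log2 ratio was 0.18, with a 95% interval from −0.08 to 0.44 and a limma adjusted p of 0.31. The second Sox21 probe was above background in the green channel alone on either array and was not tested. Its log2 ratios were −0.29 and −0.02.

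The genes listed with SOX2 and SOX21 for foregut and neural progenitors did not move in 1 direction. Of 9 genes, 5 were tested, of which 1 rose and 2 fell, with a median of −0.05. Prom1, a membrane protein of progenitors, rose by 0.50. Nes, an intermediate filament of neural progenitors, fell by 0.66, and Hes5, a target of NOTCH that was above background in 3 of the 4 channels, fell by 0.52. The Hes5 ratios were uneven, at −0.81 and −0.22. Its signals were dim, with 33.6 (control) and 8.95 (BIO) in replicate 1 and 32.2 and 22.6 in replicate 2. Trp63, the p63 factor of basal epithelial cells, had log2 ratios of 0.05 and −0.15 at its brightest probe, with a mean of −0.05. The study itself reports Trp63 among the transcription factor genes reduced in explants treated with BIO or with LiCl, another GSK3 inhibitor. Pax6, Nkx2-1, Pou5f1 and Sox3 were not tested. After median centring, 1 of the 5 was called, as fallen.

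The genes whose pattern was most like that of Sox2, by the Euclidean distance of the 2 log2 ratios over both arrays, were Adamtsl1 (0.0078), Rcsd1 (0.018) and Cntn6 (0.021). Their mean log2 ratios were −1.04, −1.05 and −1.04. With only 2 arrays, the distance ranks genes by how far they changed and carries no further meaning.

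In the SOXC group, Sox11 rose and Sox4 and Sox12 were not called. Sox11 was read by 2 probes that lie at chr12:28020087-28020146 and chr12:28019541-28019600 on the minus strand of mm9, shown because they are separate reads of the same increase.
Sox11 brighter probe: gcaggagtttttcacagaggaatacatttg
Sox11 second probe: aaccattctgtattgaaactcttgctataa
The brighter probe had processed signals of 7164 (control) and 13128 (BIO) in replicate 1, and of 7689 and 12771 in replicate 2. The second probe had 4092 and 8434 in replicate 1 and 4498 and 8022 in replicate 2. For both probes each BIO value exceeded each control value. The brighter probe gave log2 ratios of 0.80 and 0.73, with a mean of 0.77 (SE 0.11, limma adjusted p = 0.0018), or 1.70-fold higher. The second gave 1.01 and 0.84, with a mean of 0.93 (SE 0.11, limma adjusted p = 8.3e-04), or 1.90-fold higher. Both probes thus passed the test, and neither passed the 2-fold rule on both arrays. With the deposited value table, the call of Sox11 was lost at a limma adjusted p of 0.102.

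Sox4 had 3 probes, and none passed the test. The brightest read processed signals of 37450 (control) and 29324 (BIO) in replicate 1, and 39523 and 36931 in replicate 2. Each BIO value lay below each control value, and the mean log2 ratio was −0.20 with a 95% interval from −0.45 to 0.04 and a limma adjusted p of 0.22, while median centring of the arrays turned it to 0.039. The second probe had ratios of 0.00 and −0.35 and the last of 0.00 and −0.24. These probes were level in replicate 1 and below 0 in replicate 2, while the brightest had −0.20 in both.

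Sox12 was read by 1 probe, with processed signals of 677 (control) and 989 (BIO) in replicate 1 and 754 and 805 in replicate 2. Each BIO value was above each control value. Its log2 ratios were 0.47 and 0.04, with a mean of 0.26 (95% interval from −0.05 to 0.56, limma adjusted p = 0.20). The difference of Sox11 from Sox4 and Sox12 was not tested.

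The list of SOXC targets and partners holds Sox4, Sox11 and Sox12 themselves, so it was counted without them. Of the other 9 genes, 8 were tested, of which 4 fell and 4 were not called, with a median of −0.24. With the SOXC genes included the median was −0.01. The fallen genes serve young neurons or are partner factors. The mean log2 ratio was −1.16 for Dcx, a microtubule protein of migrating neurons, −0.88 for Stmn2, a neuronal stathmin, −0.69 for Dpysl3, a guidance protein of growing axons, and −0.48 for the POU factor gene Pou3f3. Tead2, a target of SOX11 and a factor of the Hippo pathway, had a mean log2 ratio of −0.01, and Tubb3, the neuronal tubulin, 0.26 at a limma adjusted p of 0.13. Markers of Schwann cell precursors and neurons moved at the same time. Of the 10 markers reported here, which are not the whole list, all were tested and 6 fell, with a median of −0.51. Their processed signals summed to 20914 (control) and 14368 (BIO) on the first array and to 26234 and 19905 on the other. After median centring, 3 of these markers were called as fallen. Stmn2 and Tubb3 stand on both lists, and the part of these cells in the neuronal values was not tested.

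**Figure D2:**
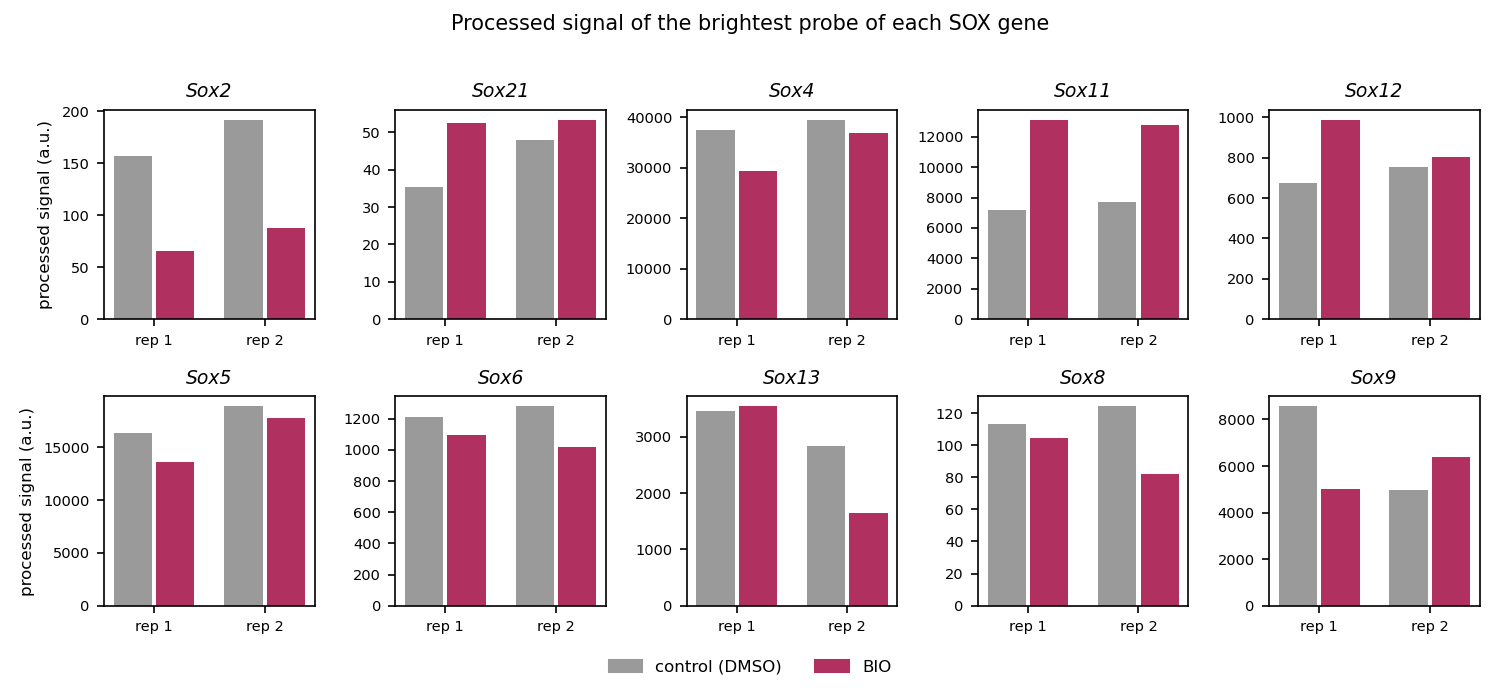
Processed signal, in arbitrary units from 0, of the brightest probe of each SOX gene in the control (grey) and BIO (red) channel of both arrays. Each panel has its own axis, since levels are not comparable between probes. Sox2 was lower and Sox11 higher with BIO in both arrays, and Sox9 and Sox13 changed direction or size between them.

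In the SOXD group, no gene was called. Sox5 depended on the probe. Its 3 probes are shown because the brightest is a repeat of GGA, which the capitals mark.
Sox5 brightest probe: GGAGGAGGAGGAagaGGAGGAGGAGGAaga
Sox5 second probe: ttacaagcaaaaacgtcatcaagaagaaga
Sox5 last probe: ctgggcccatgggcaaattcaatcagatgc
The brightest probe holds 16 GGA triplets, consists of A and G alone, and was placed by the array's annotation at chr6:143776945-143776971, a span of 27 bases for a probe of 60. On the whole array, 24 probes consisted of A and G alone or of C and T alone. Its processed signals were 16338 (control) and 13639 (BIO) in replicate 1 and 18868 and 17780 in replicate 2, so that the channels overlapped. Its ratios were −0.39 and −0.11, and the mean was −0.25 (limma adjusted p = 0.17).

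The other Sox5 probes, at chr6:143781520-143781579 and chr6:143787982-143788041, do not consist of this repeat and had dim signals, and their ratios had the opposite sign. The second probe had processed signals of 72.2 (control) and 82.4 (BIO) in replicate 1 and 77.1 and 103 in replicate 2, with a mean log2 ratio of 0.15 (limma adjusted p = 0.41). After median centring its ratios had opposite signs, with −0.15 in replicate 1 and 0.25 in replicate 2. The last had 18.7 and 24.7 in replicate 1 and 22.0 and 33.6 in replicate 2, with a mean of 0.22 (limma adjusted p = 0.20). For each of these probes every BIO value exceeded every control value. The direction of Sox5 was therefore not settled, and the 3 probes were reported one by one.

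Sox6, the partner of SOX5 in cartilage, had processed signals of 1212 (control) and 1097 (BIO) in replicate 1 and 1280 and 1020 in replicate 2. Both BIO values lay below both control values. The mean log2 ratio was −0.28, with a 95% interval from −0.54 to −0.03 for this probe alone, and it missed the threshold after adjustment over all probes (limma adjusted p = 0.10). Sox13, which also binds TCF factors, had 3457 (control) and 3542 (BIO) in replicate 1 but 2836 and 1653 in replicate 2. Its log2 ratios were 0.06 and −0.83, so the lower value came from replicate 2 alone. The mean of −0.39 had a 95% interval from −0.82 to 0.05 and a limma adjusted p of 0.18.

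Of the SOXE members, Sox8 came closest to the threshold without passing it. Its processed signals were 113 (control) and 104 (BIO) in replicate 1 and 124 and 82.2 in replicate 2. Each BIO value was below each control value, and the log2 ratios of −0.25 and −0.50 gave a mean of −0.37 (SE 0.12, 95% interval from −0.64 to −0.11, limma adjusted p = 0.0501).

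Sox9 went opposite ways in the 2 arrays. Its probe, at chr11:112648809-112648868 on the plus strand of mm9, had processed signals of 8565 (control) and 5006 (BIO) in replicate 1, and 4979 (control) and 6397 (BIO) in replicate 2. The log2 ratios were −0.80 and 0.34, and the mean of −0.23 had a 95% interval from −0.75 to 0.29 (SE 0.23, limma adjusted p = 0.52). In both arrays the green channel was the higher one, which was the control in replicate 1 and BIO in replicate 2. The 4 spots of the probe had an SD of 0.071 in replicate 1 and 0.10 in replicate 2 on the log2 scale, so the spots of an array lay close together while the arrays did not. No change of Sox9 was detectable with these 2 arrays.

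The disagreement between the arrays was measured for every gene as the size of the difference of the 2 log2 ratios divided by 2, which for exchanged dyes is the part of the ratio that follows the dye or the replicate. It was 0.57 for Sox9, and 80 of the 21574 genes (0.371%) reached this size. For Sox13 it was 0.44, reached by 235 genes (1.09%), with the red channel higher in both arrays, and for Sox12 0.22, reached by 10.0% of genes. The median over all genes was 0.082. Sox2, with 0.052, and Sox11, with 0.038, lay below this median. A dye effect of equal size on both arrays cancels in the mean, and whether dye or replicate set the values of Sox9 and Sox13 was not tested, since both would use the only residual degree of freedom.

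**Figure D3:**
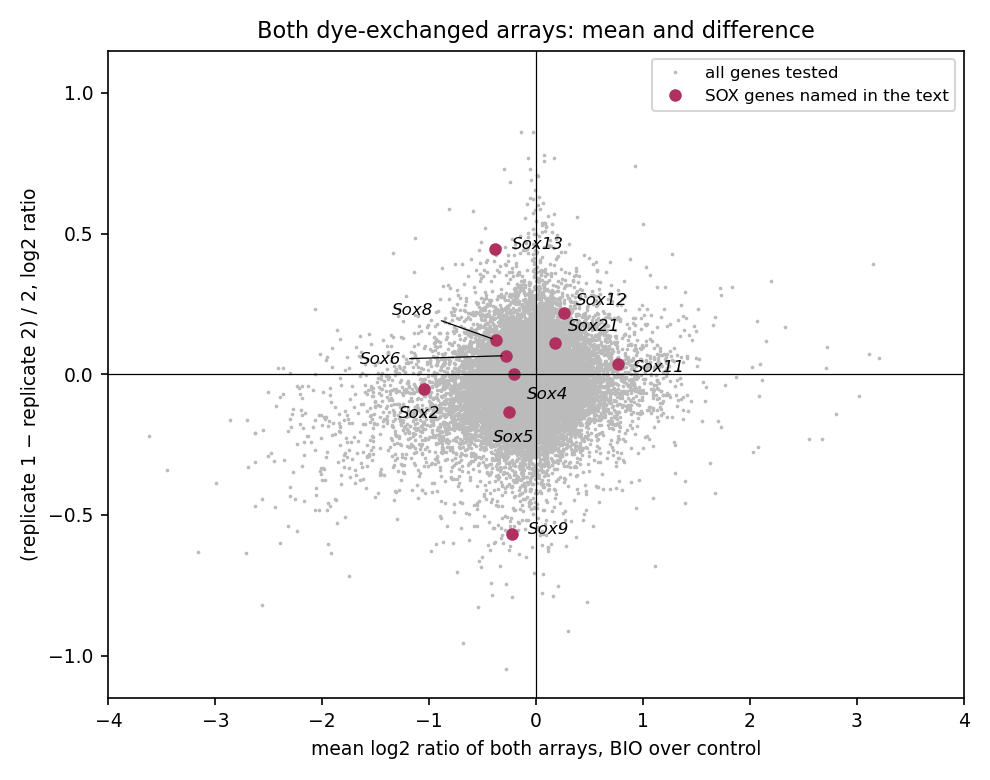
For every gene tested (grey) the mean log2 ratio of both arrays is plotted against the difference of the arrays divided by 2, with the 10 SOX genes in red. Sox9 and Sox13 lie far from the horizontal line and Sox2 and Sox11 close to it. The axes leave out 1 gene.

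The targets of SOX9 and the SOXD factors in cartilage were partly lower. Of 15 genes, 11 were tested, of which 4 fell and 7 were not called, with a median of −0.27. These are structural proteins of cartilage matrix. Hapln1, a link protein of hyaluronan, had a mean log2 ratio of −2.08, and the collagen genes Col9a1, Col2a1 and Col9a2 had −1.41, −0.47 and −0.43. Other collagen genes did not pass the test, with mean log2 ratios of 0.02 for Col11a1, −0.06 for Col11a2 and 0.05 for Col27a1. Of 6 cartilage markers, Col2a1 and Col9a1 alone were tested. Matn1, Comp and Cnmd were above background in none of the 4 channels and Acan in 2. The processed signals of Col2a1 and Col9a1 summed to 34356 (control) and 22675 (BIO) on the first array and to 38621 and 22740 on the other. The UM markers were lower as well. Of 12, 9 fell and 3 were not called, with a median of −0.59. Their signals summed to 379659 (control) and 236266 (BIO) on the first array and to 411913 and 257977 on the other. The mean log2 ratio was −2.17 for Pdgfrb and −0.79 for Pdgfra, which encode PDGF receptors of mesenchyme, −1.19 for the bHLH factor gene Twist1 and −0.91 for the collagen gene Col3a1. The UM markers not called were Tbx18, Foxf1 and Ptch1, with mean log2 ratios of −0.22, −0.16 and 0.08. Foxf1 had −0.80 in replicate 1 and 0.48 in replicate 2. The part of the mesenchymal cells in the cartilage genes, and control of these genes by SOX factors in the explants, were not tested. After median centring, 2 cartilage targets and 3 UM markers were called as fallen.

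Genes listed as targets of SOX8 and SOX9 in the ureteric tip and duct were lower in larger part. All 10 were tested, 8 fell and 2 were not called, with a median of −0.79. After median centring, and likewise with processed signals, 6 were called as fallen, without Col2a1 and Wnt11. Several act in the RET pathway that drives branching. Dusp6 and Spry1, feedback inhibitors of ERK signaling, had mean log2 ratios of −1.83 and −1.26. Etv5, an ETS factor downstream of RET, was at −1.53, and Ret itself, the receptor, at −1.46. Cldn3, a tight junction protein, had a mean log2 ratio of −0.08. The markers of the UE moved alongside. Of 12, 8 fell and 4 were not called, with a median of −0.90, and their signals summed to 105592 (control) and 58293 (BIO) in replicate 1 and 107715 and 68495 in replicate 2. Foxa1, a forkhead factor, and Upk3a, a uroplakin of the urothelium, were at −2.17 and −1.98, and the epithelial keratin genes Krt7 and Krt19 at −1.74 and −1.24. Epcam, an adhesion molecule of epithelia, had a mean log2 ratio of 0.02. Ret is also on the list of neuron markers. The part of epithelial cells in these genes, and control of the listed targets by SOX8 or SOX9 in these explants, were not tested. By the study's methods, ureters for the arrays were cut off at the kidney-ureter junction.

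**Figure D4:**
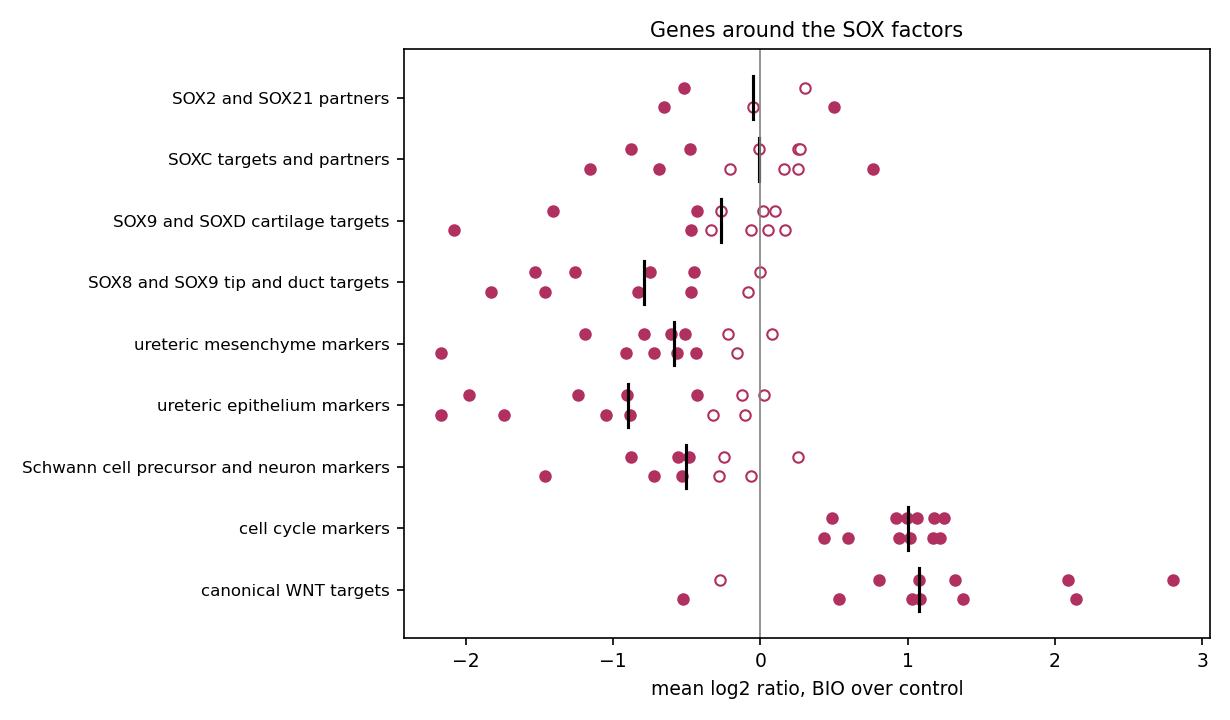
Mean log2 ratio of BIO over control of each tested gene on the lists named at the left. Filled circles passed limma at an adjusted p below 0.05, open circles did not, and the black line is the median. The tip and duct targets lie mostly below 0, the SOXC and SOX2 lists on both sides, and the cell cycle markers and WNT targets mostly above 0.

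Among the SOX genes that were not members, the endothelial SOXF genes were lower by a larger amount. The mean log2 ratio was −2.72 for Sox7, −2.48 and −2.73 for the probes of Sox17, and −1.56 for Sox18. The 8 endothelial markers all fell, and their signals summed to 28142 (control) and 4854 (BIO) on the first array and to 33624 and 9502 on the other. Kdr, Cdh5, Pecam1 and Emcn, which encode receptors and surface proteins of vessels, were at −2.63, −2.32, −2.13 and −2.07. Sox10, the SOXE gene of neural crest and glia, fell by 0.49 (limma adjusted p = 0.016, and 0.052 after median centring), with processed signals of 1196 (control) and 912 (BIO) in replicate 1 and 1319 and 908 in replicate 2. Sox1 and Sox30 were not called, at means of 0.30 and −0.19, and Sox3, Sox14, Sox15 and Sry were not tested. Differences between SOX groups were not tested.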

How the data were processed

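RNA of ureter explants was hybridized to 2 Agilent two-color arrays, and intensity values were extracted with Feature Extraction 10.7.3.1 per the submitters' processing notes. The deposited tables hold mean and background intensities left uncorrected by the authors, and processed signal intensities that Feature Extraction had background-subtracted and dye-normalized. The authors further deposited 1 score per probe and array, whose making is not given in the sources used here. Compared with the processed signals it behaved as a fold change with a sign, positive for higher BIO, of unknown centring, and the median of either column was 1. The flags for outliers and for signal above background are those in the deposited tables.

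In R 4.3.3, limma 3.58.1 was used for normexp correction of the mean intensities (offset 50) and for loess, with control and outlier spots at weight 0. Outliers were 3.49% and 3.16% of spots and were left out, and values were averaged over the 4 spots that each probe has. A probe was tested if both control channels, or both BIO channels, were well above background (28824 probes). The lmFit and eBayes functions then gave a two-sided test of the turned log2 ratios, adjusted by Benjamini-Hochberg over these probes. A gene was represented by its brightest probe. There was 1 residual degree of freedom beside 7.14 of the prior, so the number of arrays limits the precision, with a median SE of 0.11. The offset pulls dim ratios toward 0. Slide and scan were shared by both arrays. By the study's methods each array had its own pools, and the p-values cover the spread between them only. The intensity rule used processed signals with a floor of 15, centred on the median.

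Probe coordinates are those of the array annotation in mm9, and genes were named through a RefSeq table of GRCm38.p6. Position of the probes within the transcripts was not analysed here. The members, the lists (12, with 12 of 115 genes on more than 1) and the rules for naming genes were chosen with earlier results of these data known. Named were all members, the other SOX genes, up to 4 called genes with the largest change per list, and 3 genes nearest to Sox2. Further genes of the lists that were not called were named after their values were seen. Some genes of the list of Schwann cell precursor and neuron markers are not reported here and were left out of its counts. The code of the fit was run on simulated ratios, drawn with the spread of its own prior and without a dye effect. Such a run cannot show how well the fit suits these data.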

Additional observations from a re-analysis of the deposited data

How the results depend on the processing

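With the deposited value table in place of the scanner files, 0 SOX genes rose and 0 fell in limma (1 and 1 at an unadjusted p under 0.05). Sox2, at −1.20, had an adjusted p of 0.0546 and Sox11, at 0.85, of 0.102, and 3248 of all genes were called, 1929 risen and 1319 fallen, against 5154, 1970 risen and 3184 fallen. The gene lists lost most calls with that table: 3 WNT targets and 6 cell cycle markers were called as risen, and 1 cartilage target, 2 SOXC targets, 1 UE marker, 1 endothelial marker, 2 Schwann cell precursor and neuron markers, 0 tip and duct targets (3 at an unadjusted p under 0.05), 0 UM markers (7 unadjusted) and 0 of the other SOX genes (2 unadjusted) as fallen. Median centring gave 2766 called genes (827 risen and 1939 fallen) and a median of the SOX genes of −0.16, and turned Sox4 to 0.039. The mean of all tested probes, refitted and adjusted over genes instead of probes, gave 2 fallen SOX genes, a median of −0.20, and 0.038 for Sox5. Sox8 passed there at a limma adjusted p of 0.037 with its ratio of −0.37 unchanged, since it has 1 probe. Without the probes of A and G or C and T alone, chosen after seeing the data, Sox5 was at 0.15. A minimum of 1.5-fold in the rule gave 2 genes, Sox2 and Sox11. Leaving out 1 array each, the median of the SOX genes lay between −0.21 and −0.16, and the rule picked 1 gene with either array. Of 70 comparisons of a single SOX gene under another setting, 64 kept direction and call, 3 turned, 2 lost their call and 1 gained it. Part of them could not turn. Testing dim probes as well, or averaging the probes of a gene with 1 tested probe, left its ratio unchanged. Most also concerned genes that were not called to begin with. The cause of the turned and lost values was not tested. No separate paired analysis was run, because each array itself holds the pair of control and BIO RNA and the tested ratio is already paired. For Sox2, Sox8, Sox21 and the other Sox5 probes, the dim signal over background limits the precision of the ratio.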

Other observations

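The cell cycle genes moved together in these explants. All 12 markers rose, with a median log2 ratio of 1.00, while after median centring, and likewise with processed signals, 10 were called, without Mcm2 and Mcm5. Aurkb and Bub1, kinases of mitosis, rose by 1.25 and 1.17, Top2a, which untangles replicated DNA, by 1.22, and Ccnb1, the mitotic cyclin, by 1.18. The processed signals of the 12 markers summed to 62339 (control) and 114749 (BIO) on the first array and to 69670 and 127424 on the other, so that neither control sum reached a BIO sum.

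RNAs transcribed at the SOX loci were named after their values were seen. Sox2ot, the long non-coding RNA in whose intron Sox2 lies, fell by 0.43 (limma adjusted p = 0.025), with processed signals of 23.3 (control) and 11.7 (BIO) in replicate 1 and 25.7 and 12.3 in replicate 2, and was well above background in 3 of the 4 channels. Sox6os was at −0.14 (limma adjusted p = 0.41), and Sox5os1 and Sox5os3 were not tested.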
